A study of Mus musculus with 6 samples.

Results

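Type I interferon-stimulated genes were examined in 6 mouse tumors of 4T1, a mammary carcinoma line that stands in for triple-negative breast cancer. The 35 members were listed by symbol and found by matching the Ensembl identifiers of the count table to GENCODE M21. All 35 had a row among 23508 genes, and all 35 were among the 16755 genes that passed the filter on low counts. By the labels, 3 tumors were taken before neural activity first peaked (before-peak tumors) and 3 on the peak day (with-peak tumors), numbered by replicate. Both groups are 4T1 tumors with no other treatment, genotype, host strain or age in the labels, so the peak and the collection day cannot be told apart. Separate animals are not stated either, and p-values then measure only the spread between these samples.

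Type I interferons are cytokines made when cells sense foreign or misplaced nucleic acid. They bind a receptor of the subunits Ifnar1 and Ifnar2, and the kinases Jak1 and Tyk2 then pass the signal to transcription factors that include Stat2. With Irf9 these form a complex that binds the interferon-stimulated response element in promoters and switches on antiviral genes. Interferon gamma signals through another receptor and induces many of the same genes, so a member's level does not tell which interferon acted. In tumors, such genes can be expressed by carcinoma cells, macrophages, dendritic cells and other cells alike. In RNA from whole tumors, fewer cells of a type and less RNA per cell cannot be told apart.

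The response element was searched as 2 copies of GAAA with 2 bases between them, on both strands, in the 250 bases before each RefSeq start (promoters of GRCm38.p6, with copies allowed to overlap each other). Of the members, 26 had a promoter in that table and 10 of them held at least 1 copy (38.5%), against 3.35% of tested genes with a promoter. By window, 10 of 30 member windows held a copy (33.3%), against 2.98% of all 32851 windows. The stretches of members with a copy are shown, except those of Oas3, Rsad2 and Trim30a, and 2 of those shown are the same sequence. Capitals mark every base in a match, which shows TTTC in place of GAAA where it lies on the other strand, and each stretch ends before the start site.
Isg15, chr4:156200855-156200916, minus strand: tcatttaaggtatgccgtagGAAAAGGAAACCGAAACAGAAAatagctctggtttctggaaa
Bst2, chr8:71537567-71537622, minus strand: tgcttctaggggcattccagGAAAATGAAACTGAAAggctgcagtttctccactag
Oas1a, chr5:120907526-120907565, minus strand: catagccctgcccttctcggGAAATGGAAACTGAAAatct
Stat2, chr10:128270256-128270305, plus strand: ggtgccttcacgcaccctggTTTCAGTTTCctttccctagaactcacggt
Ifit1, chr19:34640765-34640833, plus strand: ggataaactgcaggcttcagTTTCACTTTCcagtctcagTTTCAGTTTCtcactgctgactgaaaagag
Ifit3, chr19:34583353-34583436, plus strand: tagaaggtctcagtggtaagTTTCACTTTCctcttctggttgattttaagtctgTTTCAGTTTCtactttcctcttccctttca
Ifit3b, chr19:34607749-34607832, plus strand: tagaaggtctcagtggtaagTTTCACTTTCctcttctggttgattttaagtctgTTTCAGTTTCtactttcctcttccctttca
Isg15 held 3 overlapping copies and Bst2 and Oas1a held 2 overlapping copies each. Ifit1, Ifit3 and Ifit3b held 2 separate copies each, and Stat2 held 1. Oas3, Rsad2 and Trim30a held 1 copy each. A match describes these letters only and says nothing of whether a factor was bound.

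Most members were higher with the peak, but none passed the test and a before-peak tumor had levels like those of with-peak tumors. Of the 35 members, 30 had a positive log2 fold change of with-peak over before-peak tumors (26 with library size alone, 29 with upper quartile scaling), where 47.7% of all tested genes did. The median log2 fold change was 0.38 over the members and -0.02 over all tested genes. The members were chosen with earlier results of these data known. Shares of members set beside all genes, here and below, therefore describe the list and do not test it. In the edgeR quasi-likelihood test, 0 of 35 members passed an adjusted p under 0.05, as did 0% of all genes, and the smallest adjusted p of a member was 0.253. With an unadjusted p under 0.05 were 7 members, all higher, or 20% of the list, where 6.12% of all genes had such a p and were higher and 9.5% had one in either direction. DESeq2 called 1 member, Ube2l6, while it called 1.41% of all genes higher, and limma-voom called 0.

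The member score, the mean log2 CPM (counts scaled to library size by TMM) of the 35 genes, was 5.02, 5.71 and 5.13 in before-peak tumors 1, 2 and 3. It was 5.82, 5.62 and 5.62 in with-peak tumors 1, 2 and 3. Before-peak replicate 2 thus lay inside the with-peak range, and the other 2 before-peak tumors lay below it. The before-peak mean was 5.28 ± 0.37 and the with-peak mean 5.69 ± 0.11 (SD, n = 3), a difference of 0.41. The members took 0.151%, 0.240% and 0.169% of each before-peak library in that order, and 0.288%, 0.254% and 0.228% of each with-peak library.

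**Figure D1:**
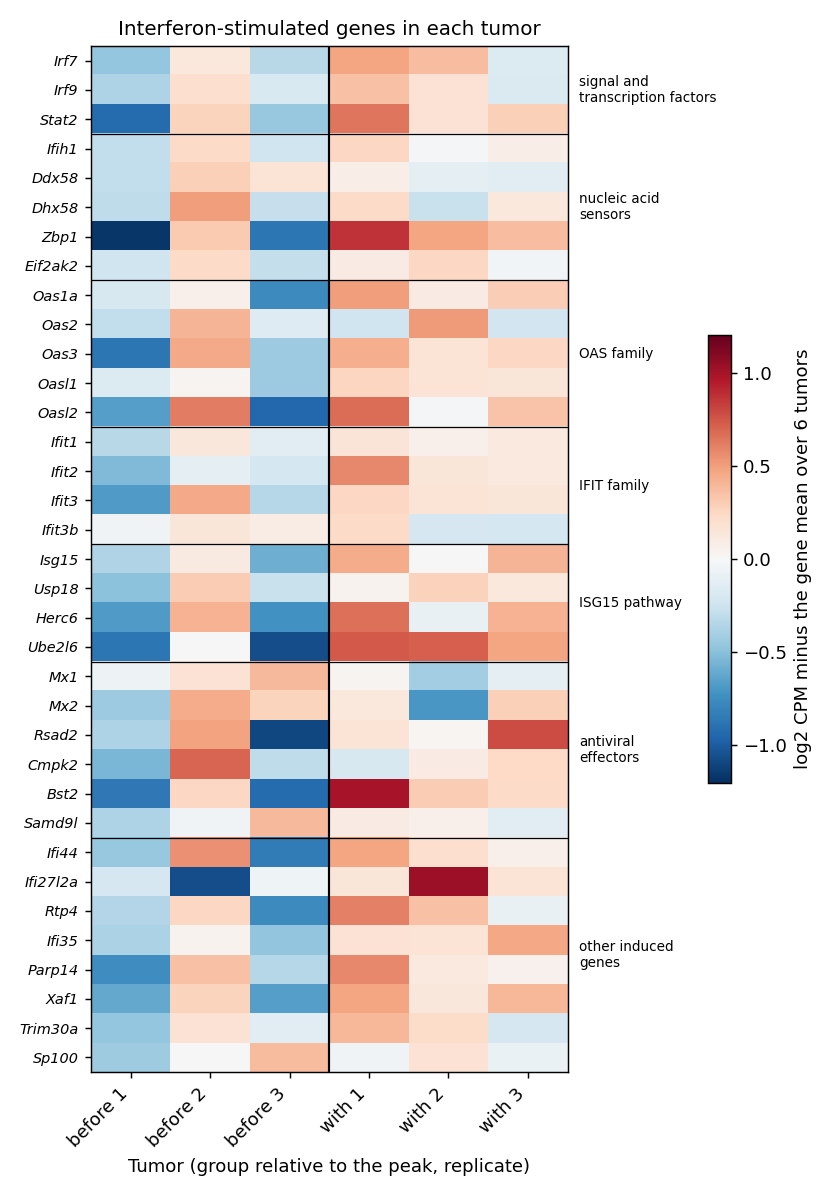
Each row is a member, grouped by role, and each column a tumor; color is the log2 CPM minus the mean of that gene over the 6 tumors. Most rows are blue in before-peak tumors 1 and 3 and red in before-peak tumor 2 and in with-peak tumor 1, with Ifi27l2a, Mx1, Samd9l and Sp100 among the exceptions.

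The same tumors were high or low for most members. Before-peak replicate 2 was the highest before-peak tumor for 31 of 35 members, against 34.2% of all tested genes. Its value lay within the with-peak range for 19 members, above it for 9 and below it for 7. With-peak replicate 1 was the highest of all 6 tumors for 19 members, and before-peak tumor 1 or 3 was the lowest for 18 and 13 members. Over the 6 tumors, the log2 CPM of 24 members correlated above 0.8 with the mean of the other members (Pearson r, median 0.86; these values share libraries and depth). Mx1 was the lowest, at -0.32, and Ifi27l2a was at 0.03, Samd9l at 0.09, Ifit3b at 0.12 and Sp100 at 0.13. These r values include the difference between the groups. With the mean of each group removed, 17 members were above 0.8 and Ifi27l2a was at -0.8. Apart from the 34.2%, no share over all tested genes is given for the counts in this paragraph, so they only describe the members.

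Without before-peak tumor 2 the median log2 fold change of the members was 0.65, and 23 members had an unadjusted p under 0.05 in edgeR, where 7.35% of all genes did in either direction. In that fit Ube2l6 (log2 fold change 1.61, SE 0.16, adjusted p = 0.0314) and Zbp1 (1.60, SE 0.19, adjusted p = 0.0473) passed, with 0.0988% of all genes called higher. That tumor was singled out from these same values, as the highest before-peak tumor for most members. Higher fold changes without it follow from that choice, so these calls are no support for a difference. Over all alternatives the adjusted p ran from 0.000834 to 0.588 for Ube2l6 and from 0.0473 to 0.82 for Zbp1. The median was 0.23 without before-peak tumor 1, where 4 members had an unadjusted p under 0.05, and 0.24 without before-peak tumor 3.

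Among the signal and transcription factors, all 3 had positive log2 fold changes and none passed. Stat2 carries the interferon signal to the nucleus together with Irf9. It was at 49.0, 112 and 67.7 CPM in before-peak tumors 1, 2 and 3 and at 145, 105 and 113 CPM in with-peak tumors 1, 2 and 3. Its groups overlapped through before-peak tumor 2, and its log2 fold change was 0.67 (SE 0.30, edgeR adjusted p = 0.558). Irf7, the factor that amplifies interferon production, was at 68.9, 104 and 75.6 CPM before the peak and 132, 123 and 85.3 CPM with it. Here before-peak tumor 2 lay above with-peak tumor 3 (log2 fold change 0.46, SE 0.21). Irf9, the DNA-binding partner, had a log2 fold change of 0.23. Exons of Irf7 overlap Phrf1 on the opposite strand and those of Irf9 overlap Rnf31, so unstranded counts cannot be split between them with certainty.

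Of the 5 nucleic acid sensors, 4 had positive log2 fold changes and none passed. Zbp1, a sensor of Z-form nucleic acid that can trigger cell death (chromosome 2, 173206612 to 173218923), was at 36.9, 103 and 45.2 CPM in before-peak tumors 1, 2 and 3. It was at 151, 115 and 107 CPM in with-peak tumors 1, 2 and 3. All with-peak tumors lay above all before-peak tumors, by a narrow gap to before-peak tumor 2, and the log2 fold change was 1.01 (SE 0.41, edgeR adjusted p = 0.525). The RNA helicase sensors that signal through Mavs differed less, with log2 fold changes of 0.19 for Ifih1 and -0.12 for Ddx58. Dhx58, their regulator, was at 0.02 and turned to -0.03 with library size alone. Eif2ak2, the kinase PKR that halts translation on double-stranded RNA, was at 0.19.

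The OAS family makes or resembles the enzymes that make oligoadenylates, which activate the nuclease RNase L. All 5 members had log2 fold changes above zero, from 0.04 to 0.57, although Oas2 turned to -0.01 with library size alone, and none passed. Oas1a was at 46.8, 55.8 and 31.5 CPM before the peak and at 75.9, 57.4 and 65.6 CPM with it. The groups did not overlap, with before-peak tumor 2 just under with-peak tumor 2, and the log2 fold change was 0.57 (SE 0.21, edgeR adjusted p = 0.446). Of the 50-base stretches of Oas1a transcripts, 57.6% also occur in Oas1g, so its count is uncertain to that extent. Oas1g itself had a log2 fold change of 0.53. Oasl2 had the widest spread of the family, from 55.3 to 163 CPM before the peak and 105 to 169 CPM with it. Oas3 and Oasl1 had log2 fold changes of 0.46 and 0.37, and the groups of Oasl1 did not overlap.

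IFIT proteins bind viral RNA or block its translation. Ifit2 (chromosome 19, 34550694 to 34576419) was at 24.2, 32.4 and 30.2 CPM before the peak and at 52.0, 38.7 and 37.8 CPM with it. Each with-peak tumor lay above each before-peak tumor (log2 fold change 0.57, SE 0.17, edgeR adjusted p = 0.384). Ifit3 was at 12.8, 28.1 and 16.1 CPM before the peak and 24.3, 23.0 and 22.7 CPM with it, highest in before-peak tumor 2. Ifit3b was at 7.95, 9.08 and 8.75 CPM before the peak and 9.61, 7.13 and 7.08 CPM with it, and the groups overlapped. The log2 fold changes were 0.30 (SE 0.27) for Ifit3 and -0.11 (SE 0.24) for Ifit3b. These 2 neighboring copies share the promoter stretch printed above, and 51.2% of the 50-base stretches of Ifit3 also occur in Ifit3b, so how reads were split between them is uncertain. Ifit1 had a log2 fold change of 0.21.

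The ISG15 pathway attaches the ubiquitin-like protein Isg15 to other proteins, and it held the member with the largest difference. Ube2l6, the enzyme that carries Isg15 to its targets (ENSMUSG00000027078, chromosome 2, 84798828 to 84810335), was at 22.9, 42.0 and 19.9 CPM in before-peak tumors 1, 2 and 3. It was at 69.7, 68.5 and 57.8 CPM in with-peak tumors 1, 2 and 3. The groups did not overlap, and the log2 fold change was 1.21 (SE 0.27, edgeR adjusted p = 0.253), or 2.31-fold. DESeq2 gave an adjusted p of 0.000834 for the same difference. Isg15 (chromosome 4, 156199424 to 156200818) was at 48.2, 66.7 and 41.2 CPM before the peak and 84.6, 61.6 and 82.2 CPM with it. Before-peak replicate 2 exceeded with-peak tumor 2, and the log2 fold change was 0.55 (SE 0.20, edgeR adjusted p = 0.437). Herc6, the mouse ligase of the pathway, had a log2 fold change of 0.58, and Usp18, which removes Isg15 and restrains the receptor, had one of 0.26.

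Of the 6 antiviral effectors, 3 had positive and 3 negative log2 fold changes, with a median of -0.01, and none passed. Bst2, or tetherin, holds budding virus at the cell surface (chromosome 8, 71534255 to 71537456). It was at 137, 294 and 131 CPM before the peak and 491, 307 and 291 CPM with it. With-peak replicate 1 stood above the rest, and before-peak tumor 2 lay just above with-peak tumor 3 (log2 fold change 0.96, SE 0.39, edgeR adjusted p = 0.525). The GTPases Mx1 and Mx2 had negative log2 fold changes of -0.34 (SE 0.23) and -0.18 (SE 0.33), that of Mx2 turning to 0.06 without with-peak tumor 2, and levels of 5.48 to 14.4 CPM. The annotation lists Mx2 as a polymorphic pseudogene. Rsad2, or viperin, had a log2 fold change of 0.54 (SE 0.40). Its neighbor Cmpk2, a nucleotide kinase, was at 0.00, turning to -0.05 with library size alone, and Samd9l, a translation inhibitor, was at -0.01.

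**Figure D2:**
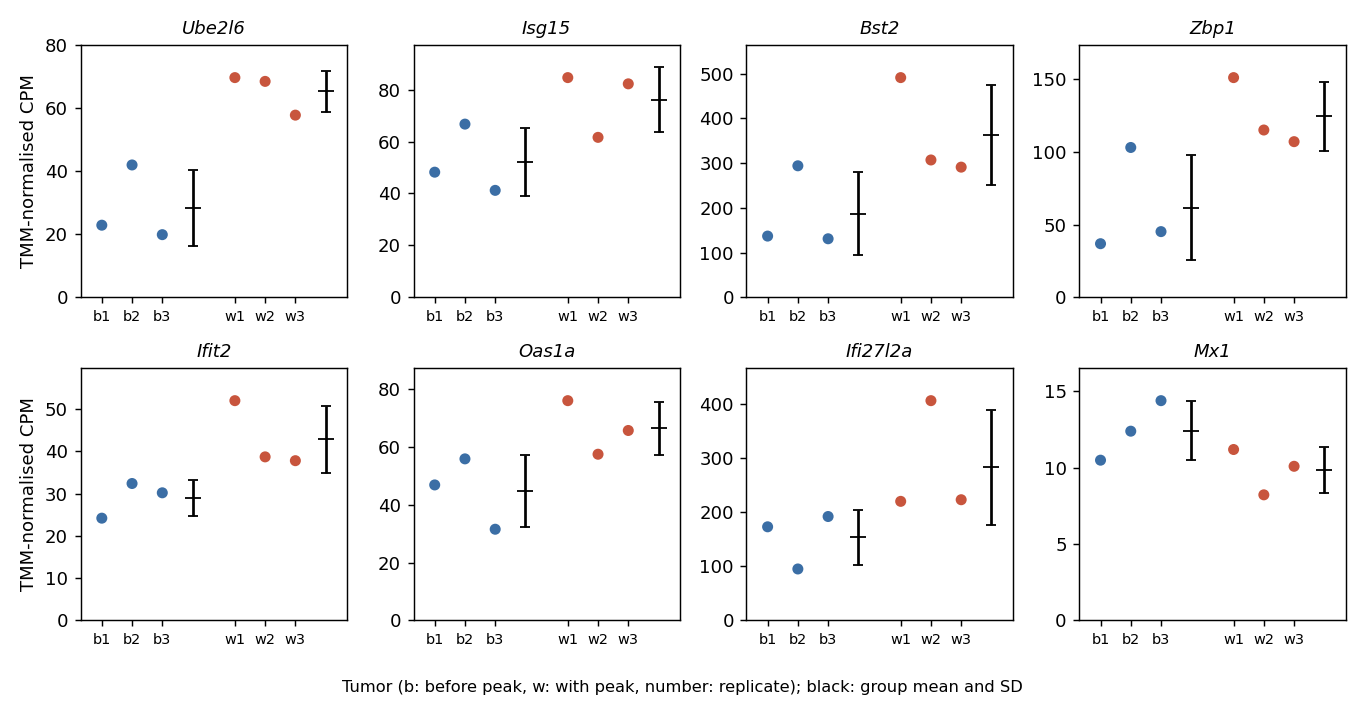
TMM-normalised CPM of 8 members in each tumor, with the mean and SD of each group of 3 in black. The groups of Ube2l6 do not overlap, before-peak tumor 2 comes up to or near the with-peak tumors for Isg15, Bst2, Zbp1 and Oas1a, and is the lowest tumor for Ifi27l2a, while Mx1 has its highest value, 14.4 CPM, before the peak.

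The 8 other induced genes had log2 fold changes from 0.01 to 0.89, all positive except that Sp100 turned to -0.05 with library size alone, and none passed. Ifi35, a small protein that modulates innate signaling, was at 40.3, 53.8 and 37.7 CPM before the peak and 59.2, 58.8 and 72.2 CPM with it. The groups did not overlap (log2 fold change 0.53, SE 0.16, edgeR adjusted p = 0.384). Xaf1, which promotes apoptosis, was at 26.2, 48.2 and 25.3 CPM before the peak and 55.7, 43.9 and 52.7 CPM with it. Before-peak replicate 2 lay above with-peak tumor 2 (log2 fold change 0.61, SE 0.25). Rtp4, Parp14, Ifi44 and Trim30a had log2 fold changes of 0.54, 0.45, 0.38 and 0.28.

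Ifi27l2a, which encodes a small interferon-induced protein, followed another order of tumors. It was at 173, 95.1 and 192 CPM in before-peak tumors 1, 2 and 3 and at 220, 406 and 223 CPM in with-peak tumors 1, 2 and 3. Before-peak replicate 2, high for most members, was here the lowest tumor, and with-peak tumor 2 was the highest. The log2 fold change was 0.89 (SE 0.35, edgeR adjusted p = 0.517), and the groups did not overlap. In all, 7 of 35 members (20%) had groups that did not overlap and were higher with the peak, against 8.13% of all tested genes. These were Ube2l6, Zbp1, Ifi27l2a, Oas1a, Ifit2, Ifi35 and Oasl1. No member had such groups in the lower direction, as 7.38% of all genes did.

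**Figure D3:**
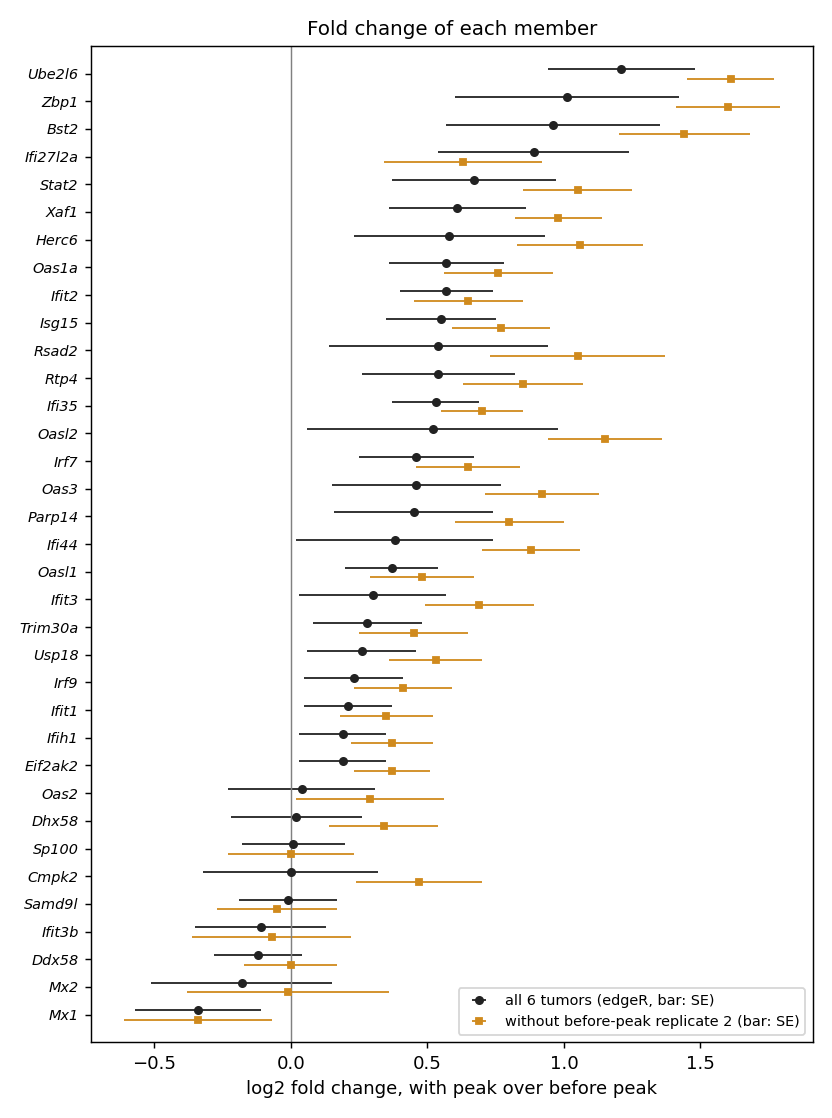
The log2 fold change of each member with its SE, from all 6 tumors (black circles) and without before-peak tumor 2 (orange squares). With all tumors the values run from -0.34 for Mx1 to 1.21 for Ube2l6, and without that tumor most move to the right, with Ube2l6 at 1.61 and Zbp1 at 1.60, while Ifi27l2a moves left to 0.63. Before-peak tumor 2 was picked from these same values, as the highest before-peak tumor for most members.

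Per kilobase of exon, levels spanned a wide range among members. The length merges all annotated exons of a gene, whether or not they are used in these tumors. Averaged over the 6 tumors, Ifi27l2a was at 471, Bst2 at 305 and Isg15 at 84.8 CPM per kilobase. At the other end, Mx2 was at 2.55, Mx1 at 2.94, Herc6 at 3.53 and Oas3 at 3.73 CPM per kilobase. The ranges of these low genes over tumors overlapped, at 1.52 to 3.34, 2.17 to 3.81, 2 to 5.21 and 1.94 to 4.84. Their order is thus not firm. Ifi27l2a and Bst2 overlapped in their ranges over tumors, at 205 to 877 and 145 to 544 CPM per kilobase, so their order is not firm. Isg15, at 54.6 to 112, lay below both in every tumor. The lowest count of a member in any library was 70, for Mx2 in with-peak tumor 2.

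The remaining genes of the pathway were taken from lists by role. Of 20 interferon ligands listed, 3 had a row (Ifnk, Ifne and Ifng) and none passed the filter; the other 17, which include Ifnb1, were not analysed here. Ifng, the gene of interferon gamma, had 0, 3 and 2 counts in before-peak tumors 1, 2 and 3 and 32, 26 and 6 counts in with-peak tumors 1, 2 and 3. No receptor or kinase of the pathway passed in either direction. The receptor subunits Ifnar1 and Ifnar2 had log2 fold changes of -0.02 (SE 0.11) and 0.28 (SE 0.13), and Ifngr1 and Il10rb, subunits of the interferon gamma and lambda receptors, had 0.28 (SE 0.11) and 0.43 (SE 0.18).

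Of 17 genes of the induction pathway, 12 had positive log2 fold changes, 0 passed and the median was 0.06. Tlr7, the endosomal sensor of single-stranded RNA, had 7.77 ± 1.93 CPM in before-peak and 16.3 ± 3.07 CPM in with-peak tumors (SD, n = 3; log2 fold change 1.07, SE 0.25, edgeR adjusted p = 0.233). Irf1 and Irf8, interferon regulatory factors, had log2 fold changes of 0.79 and 0.37. Of 14 tested brakes and nucleic acid clearing enzymes, 10 had positive log2 fold changes and 0 passed, with a median of 0.10. Dnase2a, the lysosomal DNase, and Samhd1, which depletes nucleotides, had the smallest p-values, with log2 fold changes of 0.47 and 0.64. Socs1, an inhibitor of the receptor kinases, had one of 1.16.

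Interferon-induced genes outside the members, in a list also chosen with earlier results known, had a similar direction. Of 53 tested, 45 had a positive log2 fold change, 0 passed and the median was 0.26, with Lgals9 (0.47), Lap3 (0.44) and Phf11b (0.57) at the smallest p-values. Genes that interferon gamma is known to favor had a median log2 fold change of 1.50, with 9 of 10 positive and 0 passing. Their score was 3.40, 5.89 and 4.09 in before-peak tumors 1, 2 and 3 and 6.79, 6.09 and 5.76 in with-peak tumors 1, 2 and 3. Before-peak replicate 2 lay inside the with-peak range here too. Igtp, Gbp2 and Gbp4, GTPases of that response, had log2 fold changes of 1.68, 1.81 and 2.12. Exons of Igtp overlap Irgm2, which is on the same list, and those of Gbp4 overlap Gbp8 and Gbp9. How reads were split between these genes is uncertain. The chemokine Cxcl9 was at 2.25, 59.6 and 12.3 CPM before the peak and 199, 128 and 70.4 CPM on the peak day (log2 fold change 2.42, SE 1.17, edgeR adjusted p = 0.616). The difference between these lists was not tested.

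**Figure D4:**
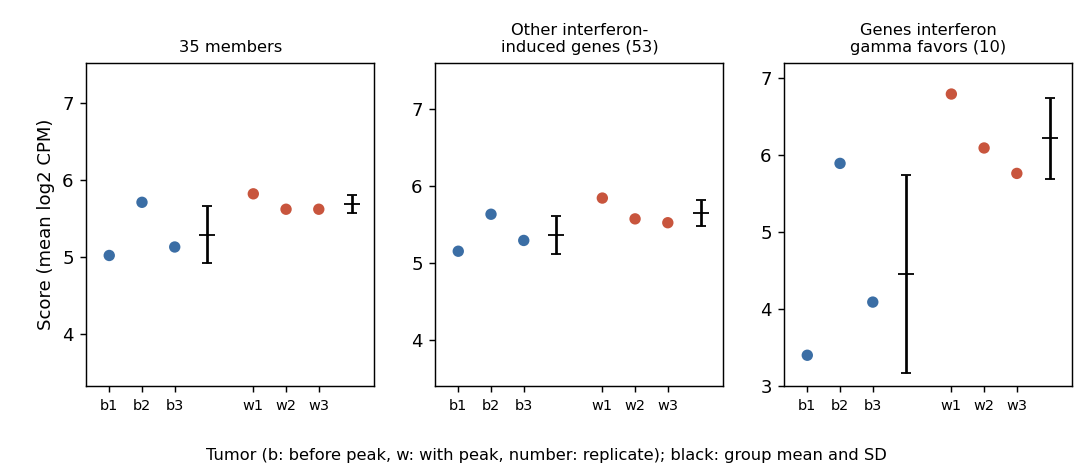
Score of 3 gene lists (mean log2 CPM of the tested genes) in each tumor, with group mean and SD in black; all vertical axes span the same number of log2 units. Before-peak replicate 2 lies inside the with-peak range in all 3 lists, and the spread is widest for genes interferon gamma favors, from 3.40 to 6.79.

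Outside all lists, the 10 genes whose log2 CPM correlated best with the member score over the 6 tumors included H2-Q1, H2-K1 and H2-D1, class I histocompatibility genes, a family known for presenting peptides to T cells, and H2-K2, which the annotation lists as a pseudogene. H2-K1 was at 871, 1920 and 965 CPM before the peak and 2360, 1760 and 1800 CPM with it, with r = 0.998. The others were Gca, Nampt, Lasp1, Gm42917, Gm10499, which the annotation also lists as a pseudogene, and Gm12185. Exons of Gca, Gm42917 and Gm10499 overlap another gene on the opposite strand, Kcnh7 and Trafd1 among them. Those of Gm12185 overlap Tgtp1 on the same strand. Unstranded counts of these genes are uncertain to that extent. All 10 had r of at least 0.99, and 86 of the 16522 genes outside the lists had r of at least 0.95. H2 genes resemble each other closely, so their counts are uncertain.

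Markers of other cells were compared in the same libraries. Total counts were 10591067 to 14549357, and the carcinoma markers, such as Epcam and Krt8, were present in all tumors at a summed 3720 to 4870 CPM before the peak and 3090 to 4570 CPM with it, with 1 of 8 higher and a median log2 fold change of -0.23. Macrophage and monocyte markers were higher with the peak for 12 of 12 genes, with summed levels of 2140 to 3520 CPM before the peak and 3980 to 5690 CPM with it, and none at 0. Before-peak replicate 2 had the lowest macrophage sum, 2140 CPM, to which Lyz2 gave 698 CPM, against 1600 and 1160 CPM in before-peak tumors 1 and 3. It was also the lowest before-peak tumor for Adgre1, Cd68, Csf1r, Mrc1, Ccr2 and Cd14. For Ly6c2, Fcgr1, C1qa, C1qb and C1qc another before-peak tumor was lower. T and NK cell markers summed to 19.2, 55.0 and 199 CPM in before-peak tumors 1, 2 and 3 and to 66.2 to 106 CPM with the peak, with 4 of 11 tested higher and none at 0. The higher ones were Gzmb, Prf1, Nkg7 and Ncr1, with log2 fold changes of 1.99, 1.00, 0.63 and 0.24. Cd3d, Cd3e, Cd3g, Cd4, Cd8a, Cd8b1 and Trbc2 had negative ones, and each was highest in before-peak tumor 3. Plasmacytoid dendritic cell markers summed to 257 to 280 CPM before the peak and 215 to 253 CPM with it, with 2 of 7 tested higher; most of the sum was Tcf4, and Cd300c was at 0 in some libraries. Erythroid markers summed to 137 to 250 CPM before the peak and 277 to 2150 CPM with it. Conventional dendritic cell markers, 3 of 9 higher (Clec9a, Itgax and Batf3), summed to 396 to 409 CPM before the peak and 351 to 389 CPM with it. Most of that sum was Fscn1, at 302 to 336 CPM before the peak and 280 to 297 CPM with it. Fibroblast markers, 8 of 8 higher, summed to 6570 to 11300 and 8530 to 16600 CPM, and endothelial markers, 8 of 8 higher, to 393 to 486 and 364 to 735 CPM, in that order. Neutrophil markers, 7 of 7 tested higher, summed to 123 to 303 CPM before the peak and 210 to 390 CPM with it. Skeletal muscle markers, 10 of 10 higher, summed to 44.2 to 226 CPM before the peak and 218 to 1310 CPM with it. B and plasma cell markers summed to 635 CPM in before-peak tumor 3 and 12.5 to 218 CPM in the other tumors. Mitochondrial rRNA, taken as a measure of RNA quality and not of a cell type, summed to 311 to 442 CPM before the peak and 603 to 667 CPM with it. Its groups did not overlap, so RNA quality may differ between the compared groups. No marker passed the edgeR test. The part of these in the members' difference was not tested.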

How the data were processed

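Trizol RNA of frozen tumors was oligo(dT) selected and sequenced paired-end without strand, per the labels' protocols. The authors deposited raw counts for each gene. Their processing notes name FastQC, STAR and mm10; the counter and annotation were not given in the sources used here. Of 23508 rows, 23479 matched GENCODE M21 (GRCm38). Counts were tested with edgeR 4.0.16 (quasi-likelihood, robust, TMM, two-sided, no covariate) in R 4.3.3 after filterByExpr (minimum count 10, total 15), with Benjamini-Hochberg adjustment over 16755 genes and a threshold of 0.05. The SE is the log2 fold change over the square root of F. Scores use a prior count of 2. Alternatives were other scalings and filters, DESeq2 1.42.0, limma-voom 3.58.1, a replicate block and leaving out each tumor. The edgeR procedure was tested on simulated data. Replicate pairs had chi-squares per degree of freedom of 17.1 to 28.9, so none was counted as a duplicate. Members, roles and lists were chosen with earlier results of these data known. Values in every tumor are given for members with an unadjusted p under 0.05, for those with the highest level per kilobase or largest fold change of each role, and for Ifit3 and Ifit3b; pathway lists give up to 3 genes with the smallest p-values. Ifnar1, Ifng, Cxcl9, Oas1g and the values of Mx1 and Oasl2 were chosen after these were seen. Some genes are not reported here. Exons of 8 members overlap another counted gene: Irf7, Irf9, Dhx58, Oasl1, Usp18, Rtp4, Ifi35 and Parp14.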

Additional observations from a re-analysis of the deposited data

How the results depend on the processing

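No member passed in edgeR with RLE factors, library size alone, upper quartile scaling, either filter, or an adjusted p under 0.1. The median log2 fold change of the members was positive under all settings, at 0.32 to 0.46 with all tumors and 0.23 to 0.65 leaving out 1 tumor, where 26 to 30 members were higher, 0 to 2 were called (2 without before-peak tumor 2) and 4 to 23 had an unadjusted p under 0.05; the score difference was 0.27 to 0.62. DESeq2 called 1 member and had 12 at an unadjusted p under 0.05, and limma-voom had 11; the cause was not tested. Over all genes, there were 236 higher and 24 lower by DESeq2, 26 and 3 with no low-count filter, 32 and 3 at an adjusted p under 0.1, and on leaving out 1 tumor 0 to 17 higher (17 without before-peak tumor 2, 13 without before-peak tumor 3 and 9 without with-peak tumor 1) and 0 lower. The 7 members that turned sign had log2 fold changes from -0.18 to 0.04 with all tumors. With library size alone Dhx58 was at -0.03, Oas2 at -0.01, Cmpk2 at -0.05 and Sp100 at -0.05, with upper quartile scaling Cmpk2 at -0.01, and with limma-voom Samd9l at 0.02. Leaving out 1 tumor gave -0.12 to 0.34 for Dhx58, -0.26 to 0.29 for Oas2, -0.23 to 0.47 for Cmpk2, -0.17 to 0.23 for Sp100, -0.27 to 0.00 for Ddx58, -0.18 to 0.21 for Samd9l and -0.40 to 0.06 for Mx2. Replicate numbers pair no tumors in the labels, and deviations of same-numbered tumors correlated at -0.06, -0.10 and 0.03. With a replicate block, 1 gene was called higher, 0 members passed, 10 had an unadjusted p under 0.05, the median was 0.45 and Samd9l was at 0.02.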
